A study of Mus musculus with 63 samples.

Results

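The expression of 7 genes for subunits of the GABA-A receptor, Gabra2, Gabra3, Gabra4, Gabra5, Gabrb1, Gabrb2 and Gabrd, was followed through 63 RNA libraries of mouse entorhino-hippocampal tissue cultures. The 7 were taken by symbol from the 55291 gene symbols of the count tables, with no measured value in the rule, and all 7 passed the filter on low counts in each of the 25 comparisons made. Slice cultures were made at postnatal day 3 to 5 from C57BL/6J mice (Synpo+/+) and from mice of the strain B6.129-Synpotm1Mndl/Dllr (Synpo-/-), and were kept for at least 18 days in vitro. The latter lack synaptopodin, an actin-binding protein of the spine apparatus, in every cell from conception on and were backcrossed to C57BL/6J for at least 10 generations. In an entorhinal cortex lesion (ECL) the perforant path was cut with a scalpel, which removes the entorhinal input of the dentate gyrus (DG) and of CA3, and tissue was taken 3 days later, while control cultures were not cut. Each of 39 regional libraries came from the DG or the CA3 of 1 culture, dissected with a scalpel. For the DG there were 4 Synpo+/+ control, 7 Synpo+/+ ECL, 7 Synpo-/- control and 4 Synpo-/- ECL libraries, and for CA3 2, 3, 6 and 6 in the same order. The other 24 libraries came from lysates of 6 pooled cultures each, sequenced as input and again after precipitation with an anti-synaptopodin antibody (coIP). There were 5 control and 5 ECL lysates of Synpo+/+ cultures and 2 lysates of Synpo-/- cultures, for which the labels give no lesion state. Either sex was used and the labels give none, and nothing says that replicates came from separate animals, so p-values measure only the spread between these cultures.

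GABA-A receptors are chloride channels built from subunits of several classes, and they carry most of the fast inhibition in the brain. Most hold alpha, beta and gamma subunits and sit at synapses, where they pass brief currents after GABA release. In others the delta subunit takes the place of gamma, and these sit outside the synapse and pass a steady, tonic current. Dentate granule cells are known for tonic inhibition through receptors of alpha4, beta and delta subunits. Receptors with alpha5 are abundant in hippocampal pyramidal cells, where many lie outside the synapse. The alpha subunit also sets drug sensitivity, since receptors with alpha4 do not respond to classical benzodiazepines while those with alpha2, alpha3 or alpha5 do.

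Total counts were 14055930 to 46043990 in the regional libraries and 11601154 to 53682143 in the coIP and input libraries. Synpo did not fall with the genotype label. It was 30.5 to 69.3 CPM (counts per 1000000, with library sizes scaled by TMM) in the 23 DG or CA3 libraries labelled Synpo-/- and 19.1 to 38.4 CPM in the 16 labelled Synpo+/+. Which exons the allele removes is not given in the sources used here, so genotype is used as labelled, and each direction between genotypes rests on the labels. The regional labels were checked by Prox1, a transcription factor of granule cells. It was 120.2 to 217 CPM in 21 of 22 DG libraries and 12.7 to 44.0 CPM in the 17 CA3 libraries, but 15.5 CPM in the library labelled Synpo+/+ DG ECL replicate 5. In that library 8 granule cell markers summed to 74.2 CPM against 454 to 699 CPM in the other 6 of its group, and 8 neuron markers to 9886 against 3842 to 4992 CPM. CA3 pyramidal markers summed to 244.7 CPM in it and to 61.9 to 83.7 CPM in the other 6. In the Synpo+/+ CA3 ECL libraries they summed to 194 to 237.5 CPM. It stayed in the comparisons as labelled, and values without it are given where stated. Other values that use Synpo+/+ DG ECL include it, among them interactions, marker and list counts, shares and correlations.

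Of the 7 genes, 3 lie on chromosome 5 in GRCm38, the build of the counts. Gabra2 is on the minus strand at chr5:70957597-71095849, Gabra4 on the minus strand at chr5:71569749-71658308 and Gabrb1 on the plus strand at chr5:71658113-72149037. Gabra4 and Gabrb1 start head to head and share 46 exon bases, which strand-blind counting cannot assign. Gabra5 is at chr7:57407672-57510059 (minus) and shares 148 exon bases with the antisense gene Gm9962, Gabrb2 is at chr11:42419757-42629028 (plus), Gabrd at chr4:155384980-155398112 (minus) and Gabra3 at chrX:72432681-72656848 (minus). Their merged exons span 2.88 kb for Gabrd, 2.97 kb for Gabra5, 3.92 kb for Gabra3, 6.08 kb for Gabra4, 6.36 kb for Gabrb2, 7.64 kb for Gabra2 and 13.8 kb for Gabrb1. RefSeq start sites (GRCm38.p6) were found for 6 members, all but Gabrd. The 250 bases before a start are shown for Gabra2 (chr5:71095850-71096099, minus) and Gabra5 (chr7:57510060-57510309, minus), which were lower in value in DG than in CA3, and for Gabrb2 (chr11:42420190-42420439, plus), which was higher. With all libraries kept, Gabra2 passed the test below only in Synpo-/- cultures, and Gabra5 and Gabrb2 did not pass it in Synpo+/+ ECL cultures. Capitals mark the motifs found. Searched on both strands were the GC box (GGGCGG), the CCAAT box (CCAAT), the TATA box (TATAAA), a site for Egr factors (GCGNGGGCG) and the cAMP response element (TGACGTCA).
Gabra2: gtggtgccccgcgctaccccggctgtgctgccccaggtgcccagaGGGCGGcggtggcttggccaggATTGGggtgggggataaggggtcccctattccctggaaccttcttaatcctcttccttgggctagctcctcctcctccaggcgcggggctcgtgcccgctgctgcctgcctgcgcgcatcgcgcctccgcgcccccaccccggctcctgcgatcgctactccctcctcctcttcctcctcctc
Gabra5: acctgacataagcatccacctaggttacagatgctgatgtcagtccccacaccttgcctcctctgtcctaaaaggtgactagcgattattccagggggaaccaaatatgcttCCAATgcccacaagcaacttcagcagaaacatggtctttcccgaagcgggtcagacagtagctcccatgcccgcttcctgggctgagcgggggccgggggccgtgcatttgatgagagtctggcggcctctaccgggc
Gabrb2: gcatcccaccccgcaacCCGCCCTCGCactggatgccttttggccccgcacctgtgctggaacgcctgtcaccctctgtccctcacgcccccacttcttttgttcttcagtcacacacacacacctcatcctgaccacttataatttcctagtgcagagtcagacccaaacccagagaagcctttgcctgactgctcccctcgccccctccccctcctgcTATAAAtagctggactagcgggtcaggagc
The Gabra2 window, 70% G and C, holds a GC box 205 bases and a reversed CCAAT box 183 bases before the start. The Gabra5 window holds a CCAAT box 138 bases before it. The Gabrb2 window shown holds a TATA box 30 bases before the start and a reversed Egr site 232 bases before it, which overlaps a GC box. Gabrb2 has other annotated starts. Its window 2 holds only a reversed CCAAT box 71 bases before the start, and its window 3 holds none of the motifs. Among 32851 such windows of all genes, 32.7% hold the GC box, 33.8% the CCAAT box, 12.4% the TATA box, 4.70% the Egr site and 1.55% the cAMP response element. These are matches of letters, not measured binding sites.

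To compare the genes with each other, levels were divided by exon length (CPM per kb). In control Synpo+/+ DG, Gabra5 stood at 41.6 ± 9.18 CPM per kb (SD, n = 4), Gabra4 at 27.2 ± 4.41 and Gabrb1 at 23.0 ± 1.81. Gabra2 stood at 12.3 ± 1.98, Gabrb2 at 9.94 ± 1.80, Gabra3 at 5.25 ± 2.20 and Gabrd, the delta subunit, at 2.13 ± 0.767 CPM per kb. The libraries did not overlap for Gabra5 over Gabra4, Gabrb1 over Gabra2 and Gabra3 over Gabrd, while Gabra4 overlapped Gabrb1, Gabra2 overlapped Gabrb2 and Gabrb2 overlapped Gabra3. In control Synpo+/+ CA3 the order was Gabra5 at 81.0 ± 23.8 CPM per kb (n = 2), Gabrb1 at 34.2 ± 1.79, Gabra4 at 21.4 ± 1.83, Gabra2 at 18.0 ± 1.26, Gabrb2 at 4.95 ± 0.544, Gabra3 at 3.43 ± 0.384 and Gabrd at 0.489 ± 0.0756. None of these neighbours overlapped, although 2 libraries show little of the spread. In the libraries labelled Synpo-/- the top 3 in DG were Gabra5 at 37.0 ± 11.4, Gabra4 at 30.1 ± 3.52 and Gabrb1 at 21.4 ± 2.30 CPM per kb (n = 7), and the first 2 overlapped. In CA3 they were Gabra5 at 101 ± 10.2, Gabrb1 at 35.0 ± 3.92 and Gabra4 at 29.7 ± 4.58 CPM per kb (n = 6), and the last 2 overlapped. By merged exon length, Gabra5 led and Gabrd was last in every group of both experiments. The longest transcript is 4108 bases for Gabra4 and 2671 for Gabra5, against 6083 and 2974 bases of merged exons. That length would raise Gabra4 more than Gabra5, so the order of these genes, and their overlap, depends on the length used.

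Seen as shares of all alpha subunit reads per kb, Gabra5 made up 32.7% ± 6.16 in control Synpo+/+ DG and 55.0% ± 5.63 in CA3. The share of Gabra4 was 21.3% ± 1.79 and 14.8% ± 1.62, that of Gabra2 9.62% ± 1.04 and 12.5% ± 1.56, and that of Gabra3 4.16% ± 1.79 and 2.42% ± 0.733. Of all beta subunit reads per kb, Gabrb1 took 32.4% ± 1.38 and 40.4% ± 1.15, and Gabrb2 14.1% ± 2.62 and 5.87% ± 1.11. By merged exon length, Gabra5 thus made up most of the alpha subunit reads per kb of CA3 and less of those of DG. These shares, too, depend on the length used.

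**Figure D1:**
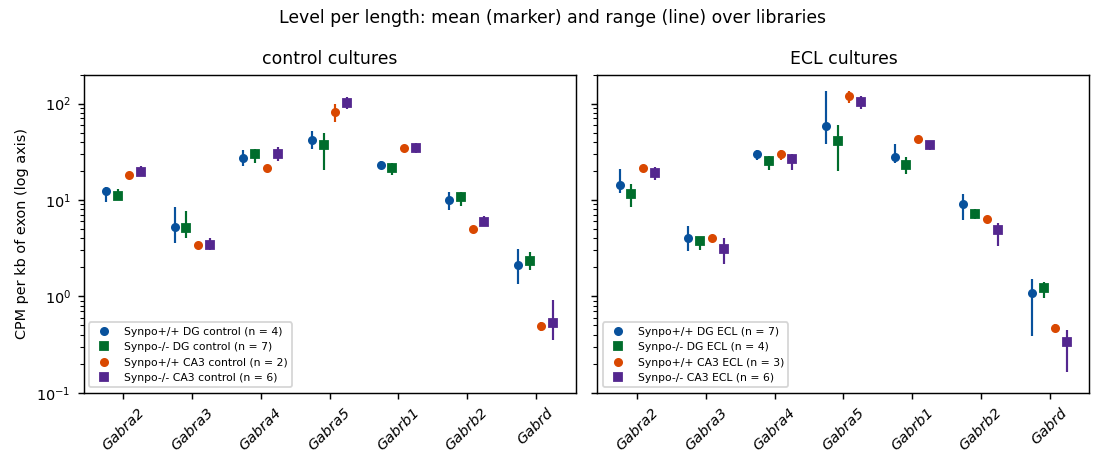
Level of each subunit gene per length, in CPM per kb of exon on a log axis, for the 8 regional groups, with markers for the mean and lines from the lowest to the highest library. By merged exon length, Gabra5 is highest and Gabrd lowest in each group, with means of 81.0 and 0.489 CPM per kb in control Synpo+/+ CA3.

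The first comparison asked how DG and CA3 differ. Differences are given as log2 of DG over CA3 ± SE, from a quasi-likelihood test in edgeR, adjusted over all genes by the Benjamini-Hochberg method, and a gene is called where the adjusted p is under 0.05. The members split in the same way in both genotypes. Gabra5 and Gabrb1 were lower in control DG than in control CA3, and Gabrb2 and Gabrd were higher. Of the 7, 4 were called in Synpo+/+ control cultures, where 5.39% of all genes were, and 6 in Synpo-/- control cultures, where 25.5% were. After ECL the counts were 1 (with 2.05% of all genes called) in Synpo+/+ and 5 (13.6%) in Synpo-/-, and without Synpo+/+ DG ECL replicate 5 the first became 5, while the share of all genes called rose from 2.05% to 19.8%. The median difference of the 7 in control cultures was 0.36 in Synpo+/+ and 0.13 in Synpo-/-, against 0.02 and 0.05 over all genes tested. In control cultures DG and CA3 did not overlap in 27.6% (Synpo+/+) and 11.2% (Synpo-/-) of all genes. After ECL these shares were 5.08% and 12.4%. Whether a region effect differed between genotypes was tested as an interaction, which called 0 members and 0% of all genes in control and in ECL cultures.

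Among the alpha subunits, Gabra5 differed most. In control Synpo+/+ cultures it was at 102, 101, 137 and 156 CPM in DG and 291 and 191 CPM in CA3. All 4 DG libraries were below both CA3 libraries, with a difference of -0.95 ± 0.20 (adjusted p = 0.0116). Leaving out CA3 replicate 1, the higher of the 2, ended this call, at -0.60 (adjusted p = 0.187). In control Synpo-/- cultures it ran from 60.5 to 148 with a median of 126 (n = 7) CPM in DG and from 260.1 to 349 with a median of 302 (n = 6) CPM in CA3. These ranges did not overlap either, and the difference was -1.35 ± 0.16 (adjusted p = 3.34e-06). After ECL the Synpo-/- libraries held 59.0, 108, 146 and 179 CPM in DG and, in CA3, from 264 to 359.5 with a median of 308 (n = 6) CPM, again without overlap, at -1.33 ± 0.23 (adjusted p = 0.00115). In Synpo+/+ ECL cultures DG ran from 114 to 399 with a median of 136 (n = 7) CPM and CA3 held 301, 369.5 and 405 CPM. The groups overlapped only through DG replicate 5, at 399 CPM, since the other 6 DG libraries ran from 114 to 166 CPM. The difference was -0.98 ± 0.29 (adjusted p = 0.0834) with that library and -1.33 (adjusted p = 3.00e-07) without it.

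Gabra2, the alpha2 subunit found at many synapses on principal cells, was also lower in DG. It was at 92.4, 72.9, 105 and 105 CPM in control Synpo+/+ DG and 144 and 131 CPM in CA3. The groups did not overlap, as in 27.6% of all genes, and the difference of -0.54 ± 0.16 (adjusted p = 0.0643) did not pass the test. In the larger set of control Synpo-/- cultures it ran from 75.4 to 98.2 with a median of 81.8 (n = 7) CPM in DG and from 136 to 173 with a median of 145 (n = 6) CPM in CA3. Here, too, no DG library reached CA3, at -0.72 ± 0.08 (adjusted p = 2.39e-06), and the same held after ECL in Synpo-/- cultures at -0.69 ± 0.15 (adjusted p = 0.00517). In Synpo+/+ ECL cultures the value was -0.54 ± 0.14 (adjusted p = 0.0599), and -0.67 (adjusted p = 4.95e-05) without replicate 5.

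Gabra3 and Gabra4 showed less. Gabra3, the alpha3 subunit, ran from 15.6 to 30.5 with a median of 18.4 (n = 7) CPM in control Synpo-/- DG and from 11.8 to 15.9 with a median of 13.2 (n = 6) CPM in CA3, where the ranges overlapped at their ends, and DG was higher at 0.69 ± 0.14 (adjusted p = 0.0012). In control Synpo+/+ cultures it was at 33.3, 17.5, 17.7 and 13.9 CPM in DG and 12.4 and 14.5 CPM in CA3, with 1 DG library well above the rest, and the difference was 0.63 ± 0.28 (adjusted p = 0.257). Gabra4, the partner of delta in granule cells, was called in none of the 4 comparisons. Its control levels were 156, 138, 202 and 167 CPM in Synpo+/+ DG and 138 and 122 CPM in CA3, a difference of 0.36 ± 0.16 (adjusted p = 0.254), and in Synpo-/- cultures the difference was 0.13 ± 0.10 (adjusted p = 0.398). After ECL it was 0.05 in Synpo+/+ and -0.07 in Synpo-/- cultures.

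The beta subunits went in opposite directions. Gabrb1 was at 293, 303, 325 and 349.6 CPM in control Synpo+/+ DG and 491 and 456 CPM in CA3. In control Synpo-/- cultures it ran from 252 to 334 with a median of 301 (n = 7) CPM in DG and from 425 to 544 with a median of 482 (n = 6) CPM in CA3. Neither pair of groups overlapped, and DG was lower by 0.56 ± 0.13 (adjusted p = 0.0237) and 0.61 ± 0.08 (adjusted p = 1.26e-05) on the log2 scale. The Synpo+/+ call was lost without CA3 replicate 1 or 2 or DG replicate 1 or 3, with values of -0.62 to -0.50 (adjusted p = 0.072 to 0.171). Gabrb1 was also the 1 member called in all 4 comparisons, at -0.55 ± 0.12 (adjusted p = 0.0374) in Synpo+/+ ECL and -0.68 ± 0.13 (adjusted p = 0.00221) in Synpo-/- ECL cultures. The Synpo+/+ ECL call was lost in each of the 9 fits that left out 1 library other than DG replicate 5, at -0.58 to -0.52 (adjusted p = 0.0638 to 0.187), and was -0.66 (adjusted p = 5.33e-05) without that one.

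Gabrb2, a subunit of the most common synaptic receptors, was higher in DG. It was at 77.3, 50.5, 66.5 and 58.6 CPM in control Synpo+/+ DG against 29.0 and 33.9 CPM in CA3. In control Synpo-/- cultures it ran from 55.7 to 77.3 with a median of 69.4 (n = 7) CPM in DG against from 34.6 to 43.3 with a median of 37.0 (n = 6) CPM in CA3. The lowest DG library exceeded the highest CA3 library in both, at 1.02 ± 0.17 (adjusted p = 0.00272) and 0.97 ± 0.09 (adjusted p = 2.52e-07). After ECL the difference was smaller in value, at 0.58 ± 0.19 (adjusted p = 0.117) in Synpo+/+ cultures, 0.62 (adjusted p = 0.00892) without replicate 5, and 0.56 ± 0.14 (adjusted p = 0.0112) in Synpo-/- cultures. The last was 0.49 (adjusted p = 0.0528) without DG replicate 2.

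Gabrd, the delta subunit of tonic receptors, gave the widest gap. It was at 6.76, 8.91, 4.91 and 3.90 CPM in control Synpo+/+ DG and 1.25 and 1.56 CPM in CA3. In control Synpo-/- cultures it ran from 5.35 to 8.31 with a median of 6.54 (n = 7) CPM in DG and from 1.00 to 2.63 with a median of 1.18 (n = 6) CPM in CA3. The regions did not overlap in either genotype, and DG exceeded CA3 by 2.12 ± 0.37 (adjusted p = 0.00317) and 2.21 ± 0.21 (adjusted p = 2.67e-07) on the log2 scale, more than 4-fold. After ECL the differences were 1.23 ± 0.35 (adjusted p = 0.0796) in Synpo+/+ cultures, 1.36 (adjusted p = 5.43e-04) without replicate 5, and 1.87 ± 0.26 (adjusted p = 1.92e-04) in Synpo-/- cultures. Counts behind these levels were 9 to 204 reads per library, so single values of Gabrd are the least precise of the 7.

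Cell markers moved with region in the same libraries. All 8 granule cell markers were higher in control DG of both genotypes, and 7 of 8 after ECL in each. Of 11 interneuron markers, 5 were higher in control Synpo+/+ DG and 7 in control Synpo-/- DG, and 4 of 8 general neuron markers were lower in each. Among all genes 5.39% were called in Synpo+/+ and 25.5% in Synpo-/- control cultures, and 2.05% and 13.6% after ECL. The interneuron markers summed to 1127 to 1813 CPM in control Synpo+/+ DG and 872 to 912 CPM in CA3, and the neuron markers to 3788 to 4692 and 6858 to 7383 CPM. Their part in the subunit differences was not tested. In pieces of tissue, fewer cells of a type and less RNA per cell cannot be told apart.

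**Figure D2:**
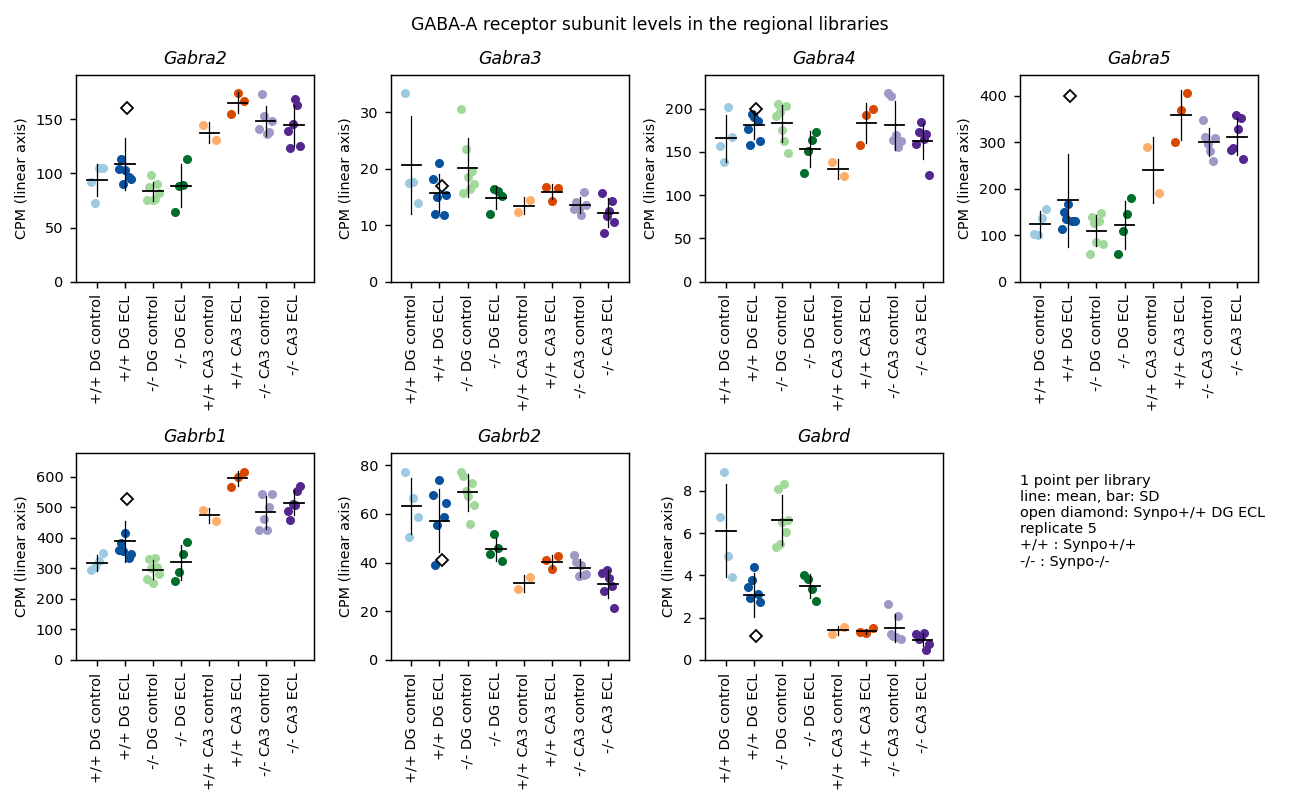
CPM of each subunit gene, on linear axes, in all 39 regional libraries, with 1 point per library, a line for the group mean with a bar for 1 SD, and the genotype, region and lesion state of each group along the horizontal axis. Gabra5 and Gabrb1 sit lower in DG than in CA3 and Gabrb2 and Gabrd higher, while 1 Synpo+/+ DG ECL library, replicate 5, lies at the CA3 level for Gabra5 (399 CPM).

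**Figure D3:**
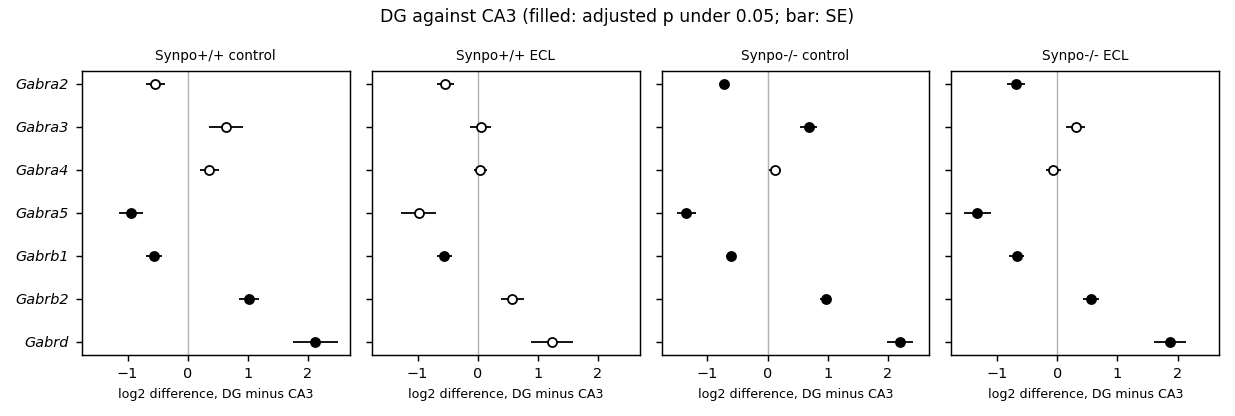
Log2 difference of DG over CA3 for each subunit gene, with bars for 1 SE, in control and ECL cultures of both genotypes. Values run from -1.35 for Gabra5 to 2.21 for Gabrd in control Synpo-/- cultures, with Gabra2 and Gabrb1 below 0 and Gabrb2 above 0 in all 4 comparisons.

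The next comparison asked what loss of the entorhinal input changed. In cultures taken 3 days after the cut, Gabrd was lower in DG of both genotypes, and Gabrb2 was lower in Synpo-/- DG. In Synpo+/+ DG, where 12.2% of all genes were called, 1 of the 7 was called. Gabrd held 6.76, 8.91, 4.91 and 3.90 CPM in the control and ran from 1.12 to 4.40 with a median of 3.12 (n = 7) CPM in the ECL libraries. The highest ECL value lay above the lowest control value, and the difference of ECL over control was -1.02 ± 0.29 (adjusted p = 0.0369). It was -0.88 (adjusted p = 0.0148) without replicate 5, where the other 6 libraries ran from 2.72 to 4.40 CPM. The call was lost when control replicate 1, 2 or 3 or ECL replicate 6 was left out, with values of -1.12 to -0.79 (adjusted p = 0.0553 to 0.139) there. A rule that also asks for a mean normalized count over 300 leaves Gabrd uncalled in each lesion comparison.

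In Synpo-/- DG, where 8.53% of all genes were called, 2 of the 7 were. Gabrd ran from 5.35 to 8.31 with a median of 6.54 (n = 7) CPM in control and held 4.01, 3.85, 3.35 and 2.78 CPM in ECL libraries, without overlap, as in 8.01% of all genes, at -0.97 ± 0.16 (adjusted p = 0.00156). Gabrb2 ran from 55.7 to 77.3 with a median of 69.4 (n = 7) CPM in control and held 43.4, 51.8, 46.1 and 40.6 CPM after ECL, also without overlap, at -0.64 ± 0.11 (adjusted p = 0.00179). Both calls held with any 1 of the 11 libraries left out. In Synpo+/+ DG Gabrb2 was at 77.3, 50.5, 66.5 and 58.6 CPM in control and ran from 39.1 to 73.9 with a median of 58.7 (n = 7) CPM after ECL, with a difference of -0.17 ± 0.17 (adjusted p = 0.514). The difference between genotypes in this change was tested as an interaction, and no member was called, with a lowest adjusted p of 0.478. Among all genes 0.00381% were called there.

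The other 5 were called in neither genotype. Gabra3 differed by -0.42 ± 0.21 (adjusted p = 0.172) in Synpo+/+ and -0.48 ± 0.17 (adjusted p = 0.0971) in Synpo-/- DG, and Gabra4 by 0.10 and -0.30. Gabra2 differed by 0.18 and 0.04, Gabrb1 by 0.26 and 0.07, and Gabra5 by 0.46 and 0.12. The Synpo+/+ values of Gabra2, Gabra5 and Gabrb1 include replicate 5 and were 0.06 (adjusted p = 0.733), 0.11 (adjusted p = 0.567) and 0.16 (adjusted p = 0.223) without it.

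Glial markers rose in the same DG libraries. In Synpo+/+ DG 8 of 8 microglia and 5 of 7 astrocyte markers were higher after ECL, and in Synpo-/- DG 6 of 8 and 6 of 7 were. Among all genes 12.2% and 8.53% were called in either direction. Microglia markers summed to 372 to 519.5 CPM in control and 942 to 1199 CPM in ECL libraries of Synpo+/+ DG, and to 451 to 996 and 975 to 1309 CPM in Synpo-/- DG. Of 8 neuron markers, 0 were lower in Synpo+/+ and 1 in Synpo-/- DG, and of 8 granule cell markers 0 were called in either. Their part in the values of Gabrd and Gabrb2 was not tested.

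In CA3 no member was called in either genotype. Among all genes, 1.78% were called in Synpo+/+ and 0.077% in Synpo-/- CA3. In Synpo+/+ CA3, with 2 control and 3 ECL libraries, 5 of 7 members did not overlap between the groups, against 46.8% of all genes, and 2 of 7 had an unadjusted p under 0.05, against 23.9%. Gabra5 held 291 and 191 CPM in control and 301, 369.5 and 405 CPM after ECL, at 0.47 ± 0.19 (adjusted p = 0.17), and Gabra4 held 138 and 122 and 157, 193 and 199.8 CPM, at 0.39 ± 0.14 (adjusted p = 0.128). In both genes every ECL library was above both controls, but the differences did not pass the test. With no filter on low counts Gabra5 passed it, at 0.50, and DESeq2 called 0 of the 7. In Synpo-/- CA3, with 6 and 6 libraries, the same genes differed by 0.06 and -0.15. The widest differences there were -0.28 ± 0.11 (adjusted p = 0.607) for Gabrb2 and -0.66 ± 0.32 (adjusted p = 0.692) for Gabrd. Whether the lesion effect differed between DG and CA3 was tested too, with a lowest adjusted p among the 7 of 1.00 in Synpo+/+ and 0.384 in Synpo-/- cultures.

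**Figure D4:**
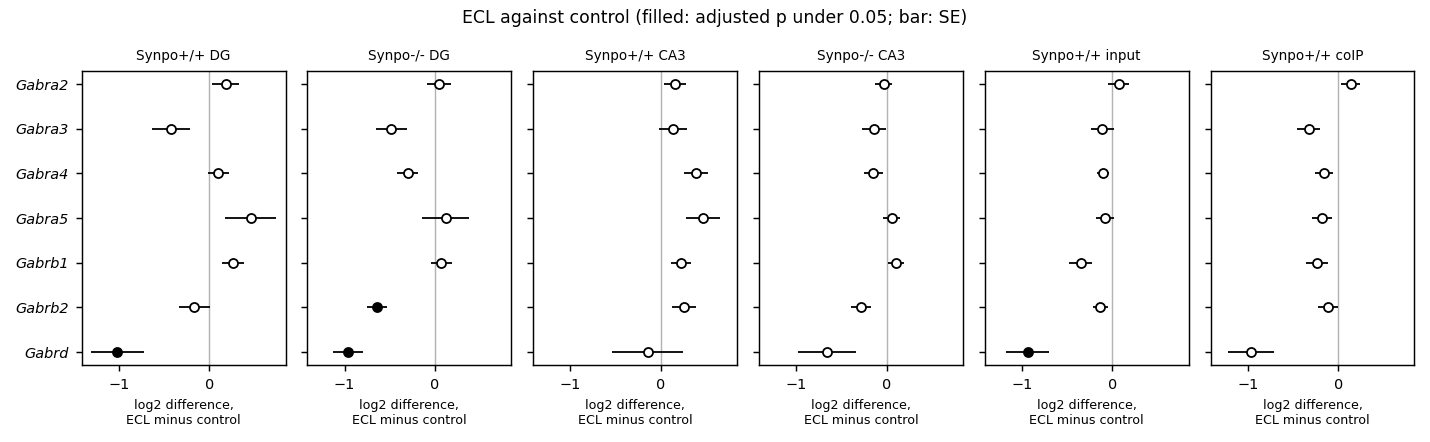
Log2 difference of ECL over control cultures for each subunit gene, with bars for 1 SE, in DG and CA3 of both genotypes and in the Synpo+/+ input and coIP libraries. Gabrd has the lowest value in each of the 6 comparisons, at -1.02 in Synpo+/+ DG, -0.97 in Synpo-/- DG, -0.94 in input and -0.96 in coIP libraries.

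The pooled lysates gave a separate view of the lesion. In Synpo+/+ input libraries, where 5.61% of all genes were called, Gabrd was the 1 member called. It held 8.28, 8.79, 4.33, 5.04 and 5.42 CPM in control and 3.30, 5.06, 2.60, 2.63 and 3.02 CPM in ECL lysates, at -0.94 ± 0.24 (adjusted p = 0.0336). The groups overlapped through ECL replicate 2, at 5.06 CPM, and the call was lost in 6 of the 10 fits that left out 1 library (control replicate 1 or 2, or ECL replicate 1, 3, 4 or 5), at -0.93 to -0.80 (adjusted p = 0.0561 to 0.106). In coIP libraries, where 0.314% of all genes were called, edgeR called 0 of the 7, with 2 at an unadjusted p under 0.05, where 12.2% of all genes were. Gabrd held 10.2, 9.16, 7.18, 6.38 and 6.09 CPM in control and 6.64, 4.03, 2.38, 3.41 and 3.23 CPM in ECL coIP libraries, at -0.96 ± 0.25 (adjusted p = 0.139), and DESeq2, the fit with no filter and the fit over all groups each called it. Gabrb1 held 255, 236, 222, 221 and 195 CPM in control and 159, 134, 170.1, 204 and 222 CPM in ECL inputs, at -0.35 ± 0.13 (adjusted p = 0.126), and at -0.45 (adjusted p = 0.0321) without ECL replicate 5. The other 5 differed by -0.13 to 0.07 in the inputs. In the same inputs 3 of 11 interneuron and 3 of 8 neuron markers were lower and 3 of 8 microglia markers higher after ECL, and their part was not tested.

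Genotype was compared within each region and lesion state, and no member was called in any of the 4 comparisons. Among all genes 0.0166% were called in control DG, 0.0166% in ECL DG, 0.00413% in control CA3 and 0.00891% in ECL CA3. At an unadjusted p under 0.05 the members numbered 0, 3, 1 and 1 in that order, against 15.5%, 3.56%, 16.4% and 6.16% of all genes, and DESeq2 called 0 in each. In control DG the differences, libraries labelled Synpo-/- over those labelled Synpo+/+, ran from -0.20 to 0.12 on the log2 scale. In ECL DG the lowest was -0.52 ± 0.32 (adjusted p = 1.00) for Gabra5, which was -0.18 (adjusted p = 1.00) without replicate 5. In control CA3 Gabra4 held 138 and 122 CPM in Synpo+/+ and ran from 156 to 218 with a median of 166 (n = 6) CPM in Synpo-/- libraries, without overlap, as in 18.5% of all genes, and the difference of 0.41 ± 0.15 (adjusted p = 0.213) did not pass the test. In ECL CA3 the differences ran from -0.46 to -0.12, all below 0, and Gabrb2, at 40.9, 37.5 and 42.7 CPM in Synpo+/+ and from 21.3 to 37.1 with a median of 31.9 (n = 6) CPM in Synpo-/- libraries, did not overlap, as in 4.26% of all genes, at -0.33 ± 0.14 (adjusted p = 0.808). Over all 8 interaction tests (genotype, lesion, region and fraction), edgeR and DESeq2 each called 0 members and edgeR called 0.00381% of all genes for genotype by lesion in DG, 1.12% for region by lesion in Synpo-/- cultures and 0% in the other 6. At an unadjusted p under 0.05 there were 2 members for genotype by lesion in DG (with 10.4% of all genes), 2 in CA3 (17.1%) and 1 for region by lesion in Synpo-/- cultures (11%). There were 0 for region by lesion in Synpo+/+ cultures (4.46%), genotype by region in control (4.38%) and ECL cultures (2.33%), genotype by fraction (7.33%) and lesion by fraction (2.22%).

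The last comparison asked which of the subunit mRNAs were enriched or depleted by precipitation with the anti-synaptopodin antibody, relative to the input of the same lysate. In Synpo+/+ lysates Gabra3, Gabra4 and Gabra5 were lower in coIP than in input and Gabrb1 was higher. Of the 7, 5 were called in control lysates and 4 in ECL lysates, where 55.0% and 58.3% of all genes were called, so a call here is no rare event. In Synpo-/- lysates, labelled as lacking the antibody's target, 2 were called and 31.4% of all genes. Their median differences were -0.21, -0.22 and -0.26, against 0.04, 0.02 and 0.02 over all genes. Corrected for the trends of all genes with exon length and GC content, 1, 2 and 1 of the 7 were called, against 47.4%, 48.9% and 27.7% of all genes.

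Gabra4 held 267, 284, 300.2, 269 and 286 CPM in control inputs and 201, 215, 184, 173 and 209 CPM in their coIPs. Every coIP library was below every input, at -0.50 ± 0.08 (adjusted p = 1.27e-04). In 39% of all genes coIP and input did not overlap there. In ECL lysates Gabra4 held 267, 265, 276, 272 and 236 and 191, 175, 194, 160.3 and 153 CPM, again without overlap, as in 41.3% of all genes, at -0.57 ± 0.09 (adjusted p = 1.37e-04). In the Synpo-/- lysates it held 221 and 289 CPM in input and 164 and 209.5 CPM in coIP, at -0.48 ± 0.16 (adjusted p = 0.0408). The depletion of Gabra4 was thus called in lysates of both genotypes, though that in Synpo-/- was lost without input replicate 2 or coIP replicate 1, at -0.32 to -0.27 (adjusted p = 0.132 to 0.405).

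Gabra3 and Gabra5 moved the same way in the fit without that correction. Gabra3 held 35.8, 44.6, 36.7, 38.4 and 43.9 CPM in control inputs and 28.4, 28.7, 34.3, 29.4 and 29.4 CPM in coIPs, at -0.39 ± 0.10 (adjusted p = 0.00305), and -0.62 ± 0.15 (adjusted p = 0.00264) in ECL lysates, in neither case with overlap, as in 39% and 41.3% of all genes. In Synpo-/- lysates it held 30.2 and 35.1 CPM in input and 23.9 and 25.2 CPM in coIP, at -0.44 ± 0.15 (adjusted p = 0.0436), a call lost without any 1 of the 4 libraries, at -0.54 to -0.32 (adjusted p = 0.0612 to 0.344). Gabra5 held 233, 244, 293, 232 and 258 CPM in control inputs and 159, 187, 193, 167 and 204 CPM in coIPs, at -0.45 ± 0.09 (adjusted p = 9.76e-04). It was at -0.57 ± 0.12 (adjusted p = 0.00107) in ECL lysates, where the lowest input lay below the highest coIP. In Synpo-/- lysates it held 261 and 311 and 201 and 259.9 CPM, without overlap, as in 68.1% of all genes, at -0.35 ± 0.15 (adjusted p = 0.107), and at -0.54 (adjusted p = 0.0095) without coIP replicate 2. Each of the 3 was lower in coIP than in its own input in 5 of 5 control, 5 of 5 ECL and 2 of 2 Synpo-/- lysates. How often all genes agree over lysates in this way was not counted.

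Gabrb1 was the only member higher in coIP by the test. It held 255, 236, 222, 221 and 195 CPM in control inputs and 286, 287, 244, 283 and 246 CPM in coIPs, at 0.27 ± 0.09 (adjusted p = 0.0189), and 159, 134, 170.1, 204 and 222 and 225, 172, 221, 240.4 and 277 CPM in ECL lysates, at 0.37 ± 0.15 (adjusted p = 0.0433). The ranges overlapped, but 5 of 5 lysates were higher in each. The control call was lost without input replicate 5, at 0.18 (adjusted p = 0.111), and the ECL call without input replicate 1, 2 or 3 or coIP replicate 1, 3, 4 or 5, at 0.27 to 0.38 (adjusted p = 0.0572 to 0.125). Gabrb1 has the longest exons of the 7, and a correction for the trend of all genes with exon length turned its differences to -0.22 and -0.14. In Synpo-/- lysates it held 207 and 237 CPM in input and 253 and 250.2 CPM in coIP, at 0.15 ± 0.13 (adjusted p = 0.422).

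Gabrb2 held 66.3, 68.7, 72.9, 77.7 and 76.0 CPM in control inputs and 61.2, 62.7, 57.6, 61.0 and 65.7 CPM in coIPs, without overlap, as in 39% of all genes, and was lower at -0.21 ± 0.08 (adjusted p = 0.0365). This call was lost without input replicate 3 or 4 or coIP replicate 1, 3 or 4, at -0.21 to -0.19 (adjusted p = 0.058 to 0.0888). In ECL lysates it held 70.2, 68.4, 66.5, 71.1 and 55.8 and 55.4, 57.8, 56.4, 66.7 and 45.2 CPM, with overlap. Its difference was -0.22 ± 0.11 (adjusted p = 0.11) there, -0.29 (adjusted p = 0.0318) without coIP replicate 4, and pairing each coIP with its input gave -0.23 (adjusted p = 0.0382) and raised the count from 4 to 5 of 7, with 62.4% of all genes called. In Synpo-/- lysates Gabrb2 was at -0.26 ± 0.16 (adjusted p = 0.254).

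Gabra2 and Gabrd were called in none of the 3. Gabra2 differed by -0.07, -0.02 and 0.21 in control, ECL and Synpo-/- lysates. Gabrd was higher in coIP in 5 of 5 control, 3 of 5 ECL and 2 of 2 Synpo-/- lysates, at 0.31 ± 0.22 (adjusted p = 0.238), 0.26 ± 0.27 (adjusted p = 0.428) and 0.53 ± 0.22 (adjusted p = 0.0843). The Synpo-/- call count rests on 2 lysates and ran from 0 to 2 when 1 library was left out, with 15.6% to 28.5% of all genes called. No member's coIP difference was called as different between Synpo-/- and control Synpo+/+ lysates, with a lowest adjusted p of 0.818, or between ECL and control Synpo+/+ lysates, at 1.00. Both tests called 0% of all genes. The Synpo-/- lysate libraries held 42886994 to 53682143 total counts and those of Synpo+/+ lysates 11601154 to 29014397. Genotype and depth therefore cannot be told apart in the first test. Beside this, 6, 7 and 4 of 11 interneuron markers and 3, 6 and 5 of 8 microglia markers were lower in coIP in control, ECL and Synpo-/- lysates. Among all genes 55.0%, 58.3% and 31.4% were called there in either direction, so such counts are common. Of 8 general neuron markers 2, 3 and 2 were lower and 1 was higher in each, and their summed level was lower in coIP in all 3, without overlap between libraries. It was 8063 to 9604 CPM in control inputs and 4907 to 6265 CPM in their coIPs, 7029 to 8398 and 4105 to 5477 CPM in ECL lysates, and 7519.5 to 8178 and 5509 to 6124 CPM in Synpo-/- lysates. The part of these markers in the subunit differences was not tested.

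**Figure D5:**
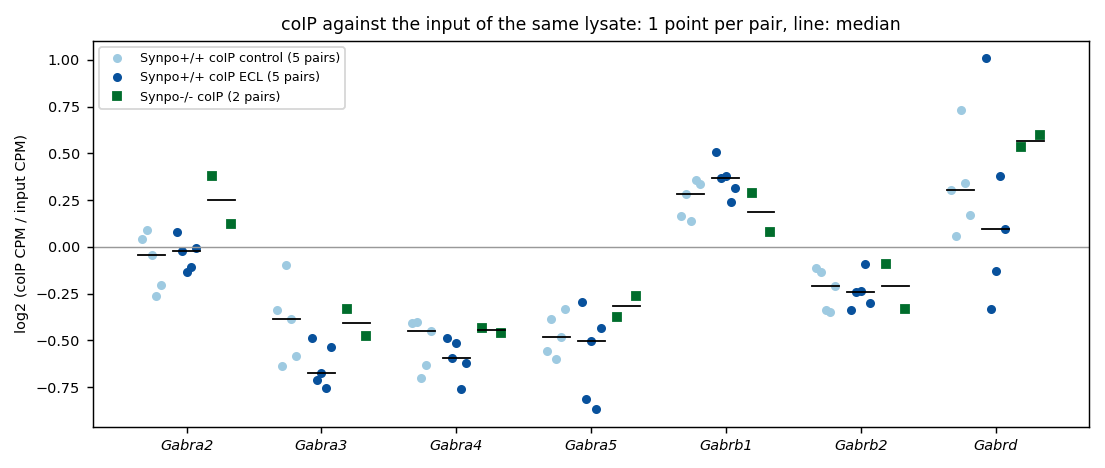
Log2 ratio of coIP over input CPM for each subunit gene, with 1 point per lysate and a line for the median, in Synpo+/+ control, Synpo+/+ ECL and Synpo-/- lysates. Points for Gabra3, Gabra4, Gabra5 and Gabrb2 lie below 0 in 5 of 5, 5 of 5 and 2 of 2 lysates, and those for Gabrb1 lie above 0 in as many.

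A list of 12 other subunit genes, none of them among the 7, was read beside them. Between DG and CA3, 1 of 10 tested was higher in control Synpo+/+ DG and 0 were lower. In control Synpo-/- DG 4 of 8 were higher and 1 was lower, and Gabrg3, the gamma3 subunit, was among the higher, at 0.52 ± 0.11 (adjusted p = 0.00215). After ECL 2 of 10 were lower in Synpo-/- DG and 2 of 5 in Synpo+/+ input, with none higher in either. In Synpo+/+ DG 0 of 10 were called by edgeR. Among all genes 5.39% and 25.5% were called between regions in Synpo+/+ and Synpo-/- control cultures. For the lesion the shares were 8.53% in Synpo-/- DG, 5.61% in Synpo+/+ input and 12.2% in Synpo+/+ DG.

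A list of 26 genes for GABA synthesis, transport, GABA-B receptors and the inhibitory postsynapse gave the setting. In control cultures 1 was higher and 3 lower in Synpo+/+ DG than in CA3, and 4 higher and 10 lower in Synpo-/- DG. Among all genes 5.39% and 25.5% were called. In Synpo+/+ the 4 were Gad1, which makes GABA (0.54), Iqsec3, a gephyrin-binding exchange factor (-1.06), Gabbr2, a GABA-B receptor subunit (-0.62), and Trak2, a transport adaptor (-0.50). After ECL 1 was higher in Synpo+/+ DG (Gabarap, a receptor trafficking protein, 0.46) and 2 lower in Synpo-/- DG. Gad1 was among the latter (-0.44). Among all genes 12.2% and 8.53% were called. In coIP against input more of the list was higher than lower, with 17 higher and 2 lower in control Synpo+/+, 16 and 3 in ECL Synpo+/+ and 11 and 4 in Synpo-/- lysates. Among all genes 55.0%, 58.3% and 31.4% were called in either direction. In Synpo-/- lysates Nlgn2, a neuroligin of inhibitory synapses, was at 0.93 and Slc12a5, the chloride extruder KCC2, at 0.75. The list's median coIP difference was 0.51, 0.53 and 0.47 in the 3. These coIP counts and values of the list were not corrected for exon length or GC content.

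For each member the genes of most similar pattern were found by Pearson's r of log2 CPM over the 39 regional libraries, among 11509 genes. These libraries share the DG and CA3 split, so the values are descriptions. The closest to Gabra5 was Tbata (r = 0.979). The 2 closest were, for Gabrb1, Socs2 (r = 0.967) and Nkd2 (r = 0.963), and for Gabra2 Pde1a (r = 0.956) and Cdh10 (r = 0.954). For Gabrd they were Hlf (r = 0.950) and Zmat4 (r = 0.947), and for Gabrb2 Mmp16 (r = 0.909) and Nrep (r = 0.890). Gabra4 with B3galt1 (r = 0.827) and Plppr1 (r = 0.824) and Gabra3 with Fam81a (r = 0.801) and Meis2 (r = 0.797) had no gene as close.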

How the data were processed

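RNA was sequenced from DG or CA3 of single cultures and from coIP and input fractions of pooled lysates. The deposited values are raw read counts per gene symbol. Per the labels and the study's methods, the authors used cutadapt 3.5 for trimming, mapped reads to mm10 (GRCm38) with STAR 2.7.8a and counted them without strand over GENCODE exons with featureCounts 2.0.1. Libraries with over 60% uniquely mapped reads were kept. Total counts per library and group sizes are given with the samples, and replicates were not pooled. CPM was computed as counts per 1000000 of the TMM-scaled library size, separately for the regional and the lysate libraries, and CPM per kb with the merged exons of the deposited annotation. Of the symbols 107 stand for more than 1 gene, none of them a member. Each comparison was tested in edgeR 4.0.16 (R 4.3.3) on the libraries of its groups, with TMM scaling, filterByExpr and glmQLFTest, and interactions in 1 model of the 4 groups. Adjustment over all genes was by the Benjamini-Hochberg method, and an adjusted p under 0.05 was called. The scripts were tested on simulated data. The members, lists and tests were chosen with earlier results of these data known. Named genes are the members, the called genes of the lists with the smallest p, and the 2 genes of highest r per member among those with a mean over 5 CPM, and some of these are not reported here. CoIP and input came from the same lysate: deviations from the group means correlated at 0.297 to 0.603 in 5 control pairs, 0.162 to 0.611 in 5 ECL pairs and 0.101 in the 2 Synpo-/- pairs, which were matched by the preparation number in the titles. The main test has no block, and the paired fit is an alternative. The regional numbers gave -0.333 to 0.450. For DG against CA3 in Synpo-/- control cultures all 6 pairs were above 0, at 0.068 to 0.450, while each other regional set held a value below 0. No label says whether DG and CA3 samples of the same number share a culture. The region tests treat them as separate. No 2 libraries of a group agreed within sampling noise (chi-square per degree of freedom of at least 7.49). Alternatives were DESeq2, RLE scaling, no filter, all groups in 1 fit, trends with exon length and GC content, the longest transcript as length, a mean normalized count over 300, a replicate block and leaving out each library. No label gives a batch or date.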

Additional observations from a re-analysis of the deposited data

Results flagged for a closer look

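In 7 of 70 combinations of a member and a group of 4 to 10 libraries, 1 library lay far from the others by Dixon's test, where chance gives about 1 in 20. Synpo+/+ DG ECL replicate 5 was such a library for Gabra5 (399 CPM against 166 CPM in the nearest other library), Gabrb1 (528 CPM against 415 CPM in the nearest other library) and Gabra2 (161 CPM against 113 CPM in the nearest other library), all high. It is the library whose Prox1 level was 15.5 CPM. Among the lysates, Gabra3 was high in Synpo+/+ coIP control replicate 3 (34.3 CPM against 29.4 CPM in the nearest other library) and Gabrd was high in Synpo+/+ input ECL replicate 2 (5.06 CPM against 3.30 CPM in the nearest other library). Gabra4 was low in Synpo+/+ input ECL replicate 5 (236 CPM against 265 CPM in the nearest other library) and Gabra5 was low in Synpo+/+ input ECL replicate 1 (185 CPM against 243 CPM in the nearest other library).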

How the results depend on the processing

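Over all alternatives, 3191 of 3493 values of member differences kept their direction and their side of the threshold, 186 changed sign without a call on either side, 46 passed the threshold newly, 68 no longer passed it and 2 reversed a call. Most differences were uncalled as reported, and values that stayed uncalled are among those kept. The 68 lost calls fell on the called differences alone. The changes of sign without a call fell on 47 of 175 differences, all at most 0.39 in size as reported. The reversed calls were those of Gabrb1 in coIP against input after correction for exon length, -0.22 in control and -0.14 in ECL Synpo+/+ lysates, so the direction of Gabrb1 there depends on that correction. Of 524 counts of members called, 478 stayed within 1.5 times, many of them at 0 in both fits. For DG against CA3 in Synpo+/+ ECL cultures the count was 1 (2.05% of all genes called, given in the same way for each fit) and became 3 (6.75%) with DESeq2, 4 (2.35%) with no filter, 5 (6.66%) with all groups in the fit, 2 (3.05%) with the length trend and 2 (4.2%) with length and GC, and 5 (14.8%) with all groups but without replicate 5, an alternative chosen after seeing the data. For ECL against control, Gabrd dropped out under a mean normalized count over 300, which left 0 (5.9%) in Synpo+/+ DG, 1 (4.95%) in Synpo-/- DG and 0 (3.73%) in input. With length and GC the input count was 0 (6.11%). With no filter Synpo+/+ CA3 gave 1 (5.67%), and in coIP libraries DESeq2 gave 1 (1.9%), no filter 1 (0.675%) and all groups 1 (1.48%). For coIP against input the control count of 5 became 3 (28.8%) with no filter, 3 (48.0%) with all groups and 1 (47.4%) with length and GC, the ECL count of 4 became 2 (48.9%) with length and GC, and the Synpo-/- count of 2 became 1 (23.4%) with all groups and 1 (27.7%) with length and GC. Apart from the exon length and the abundance rule, the cause was not tested. With 1 library left out at a time, counts ran from 2 to 4 and 0 to 5 for DG against CA3 in Synpo+/+ control and ECL cultures, 4 to 5 in Synpo-/- ECL, 0 to 1 for ECL in Synpo+/+ DG, 0 to 1 in input, and 4 to 5, 3 to 4 and 0 to 2 for coIP in control, ECL and Synpo-/- lysates. They stayed at 6 and 2 for region and lesion in Synpo-/- control and DG cultures and at 0 elsewhere. With the replicate number as a block, the region count in Synpo+/+ ECL cultures was 5 (20.8%), the lesion count in Synpo+/+ DG 0 (12.6%) and the genotype count in control CA3 1 (9.22%) for Gabra4 (0.67). No label says that regional samples share more than this number. In the lysates the pairing by block changed 1 call, that of Gabrb2 in ECL coIP. Shares within the alpha class moved by more than 1 SD in 44 of 84 cases with the longest transcript as length. Depth limits Gabrd, with 9 to 204 counts per regional library, and groups of 2 libraries limit CA3 control and Synpo-/- lysates.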

Other observations

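After ECL the makeup of the alpha class in CA3 was led by Gabra5 in both genotypes, at 60.4% ± 2.37 (SD, n = 3) of alpha reads per kb in Synpo+/+ and 60.1% ± 1.55 (n = 6) in Synpo-/- cultures. Gabra4 stood at 15.1% ± 0.288 and 15.3% ± 1.53. In ECL DG Gabra5 took 40.6% ± 10.3 (n = 7) in Synpo+/+, with replicate 5 included, and 35.6% ± 8.09 (n = 4) in Synpo-/- cultures. The pooled lysates held whole cultures, and Gabra5 took 47.1% ± 1.60 (n = 5) of alpha reads per kb in control inputs and 44.4% ± 2.38 in the coIPs, and Gabra4 25.7% ± 0.700 and 23.5% ± 1.62. Gabra6, a subunit of cerebellar granule cells, took at most 0.499% in any group. These shares were not tested.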
